A study of Mus musculus with 12 samples.

Results

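Histone genes and their variants were followed through synchronised meiotic prophase in mouse testis with and without Zfp541. The set held the 83 protein-coding genes, of 55450 genes in the deposited tables, whose symbols start with Hist1h to Hist4h, H1f, H2af, H2bf or H3f. They were 64 replication-dependent genes, 10 replication-independent variants and 9 germ-line genes. Another 9 rows with such symbols were not annotated as protein-coding and were left out.

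The cells were germ cells of C57BL/6 testis, of genotype Zfp541 knockout (KO) or wild type (WT). All mice, whatever the genotype, had received WIN 18,446, an inhibitor of retinoic acid synthesis that holds spermatogonia undifferentiated, for 7 days from day 2 after birth, and then retinoic acid on day 8 of that treatment. The 4 groups were KO and WT testes taken 260 h after retinoic acid (labelled early pachytene) and KO and WT testes taken 360 h after it (labelled late pachytene). Cells were picked by mouth pipette, and each group had 3 libraries of 96 barcodes. Whether the libraries of a group are separate animals is not stated in the labels, and the spread behind each p-value is that between libraries, which may be technical. The labels do not describe the knockout allele or the part of Zfp541 that it removes.

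Histones are the proteins around which DNA is wrapped. Replication-dependent histone genes are read in S phase, and their messages end in a conserved stem-loop bound by SLBP in place of a poly(A) tail. Replication-independent variants carry ordinary poly(A) tails and are made outside S phase. In the male germ line, testis forms of H1, H2A and H2B join or replace the common forms, H2A variant X is phosphorylated on the silenced sex chromosomes of pachytene cells, and spermatids later exchange most histones for transition proteins and protamines.

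The assay read polyadenylated RNA, so detection and transcript ends come first. Of the 83 genes, 48 held a histone stem-loop in an annotated transcript (GENCODE M21, mm10), a form found in 0.11% of other coding genes. The sequences below are those of the replication-dependent or germ-line genes that differed between genotypes at 360 h and whose stem-loop lies in a single-exon gene, with Hist3h2a and H2afx as the most often detected stem-loop genes of their groups. They are written 5′ to 3′ on the transcript strand, and capitals mark the 16 bases of the stem-loop.
Hist1h4d: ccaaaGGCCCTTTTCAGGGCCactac
Hist1h4c: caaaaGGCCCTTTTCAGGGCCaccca
Hist1h4i: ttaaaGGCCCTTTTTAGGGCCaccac
Hist1h2bm: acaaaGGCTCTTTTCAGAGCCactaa
Hist1h1t: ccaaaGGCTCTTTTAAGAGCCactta
Hist3h2a: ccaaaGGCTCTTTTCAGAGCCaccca
H2afx: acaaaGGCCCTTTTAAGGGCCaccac
These stem-loops lie at chr13:23581950-23581965 (+) in Hist1h4d, chr13:23698089-23698104 (-) in Hist1h4c, chr13:22040966-22040981 (-) in Hist1h4i, chr13:21722506-21722521 (+) in Hist1h2bm, chr13:23696525-23696540 (+) in Hist1h1t, chr11:58955172-58955187 (+) in Hist3h2a and chr9:44335240-44335255 (+) in H2afx. The form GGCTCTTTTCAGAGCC was shared by 24 genes of the set and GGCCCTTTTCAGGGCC by 7 genes, all of them H4 genes. The annotated transcript of Hist1h4d ran 770 bases past its stem-loop, those of Hist1h4c and Hist1h4i 454 and 330 bases, and that of Hist1h1t 185 bases, whereas that of Hist1h2bm stopped 46 bases after it. Hist2h2be, the replication-dependent gene with the clearest genotype difference, had no stem-loop in its 2620-base transcript and ended within 50 bases of a polyadenylation hexamer (AATAAA or ATTAAA, searched on the transcript strand).

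Counts were unique molecular identifiers (UMIs), each marking a single cDNA molecule captured at its 3′ end. The histone genes took 365097 of 126698949 gene UMIs, or 0.288%, over 929 kept cells. Gene UMIs per library ran between 3601518 and 27202665, and every kept cell had at least 44624. Limits given where no UMI was found cover counting error only, whereas SE and SD values hold the spread between libraries.

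Detection differed by class. The 10 replication-independent variants held 340800 UMIs, and 9 of them were seen in at least 50% of cells. The 64 replication-dependent genes held 17757 UMIs, 57 had a UMI in some cell, 27 were seen in at least 5% of cells, and only Hist3h2a, an H2A gene, passed 50% (727 of 929 cells). Hist3h2a exons overlap those of Trim17 on the same strand, and the part of this overlap in the Hist3h2a counts was not tested. Of the 9 germ-line genes, 8 had a UMI, 6540 in all. No UMI was found for Hist2h2aa1, Hist2h2aa2, Hist2h3c1, Hist2h3b, Hist2h2bb, Hist1h2bq, Hist1h2br and H2afb2; 0 of 929 cells allows a share of cells with a UMI of up to 0.323%. Some of these absences concern near-identical copies: 9 genes, among them Hist2h2aa1, Hist2h2aa2, Hist2h3c1 and Hist1h2bq, shared every 50-base stretch of their last 300 annotated bases with another gene, which the authors' counting could have split or dropped.

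Detection also differed with the annotated transcript end, given here as a description. Among replication-dependent genes, the 22 whose transcript ran more than 100 bases past the stem-loop included 13 seen in at least 5% of cells (median 5.49% of cells, highest 78.3%). Of the 23 whose transcript ended within 100 bases of it, 9 were seen that often (median 2.15%, highest 20.0%). A hexamer lay in the last 50 bases of 16 replication-dependent genes, 11 of them seen in at least 5% of cells, and was missing from 48, of which 16 were seen that often. The same hexamers lay there in 78.1% of other coding genes.

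**Figure D1:**
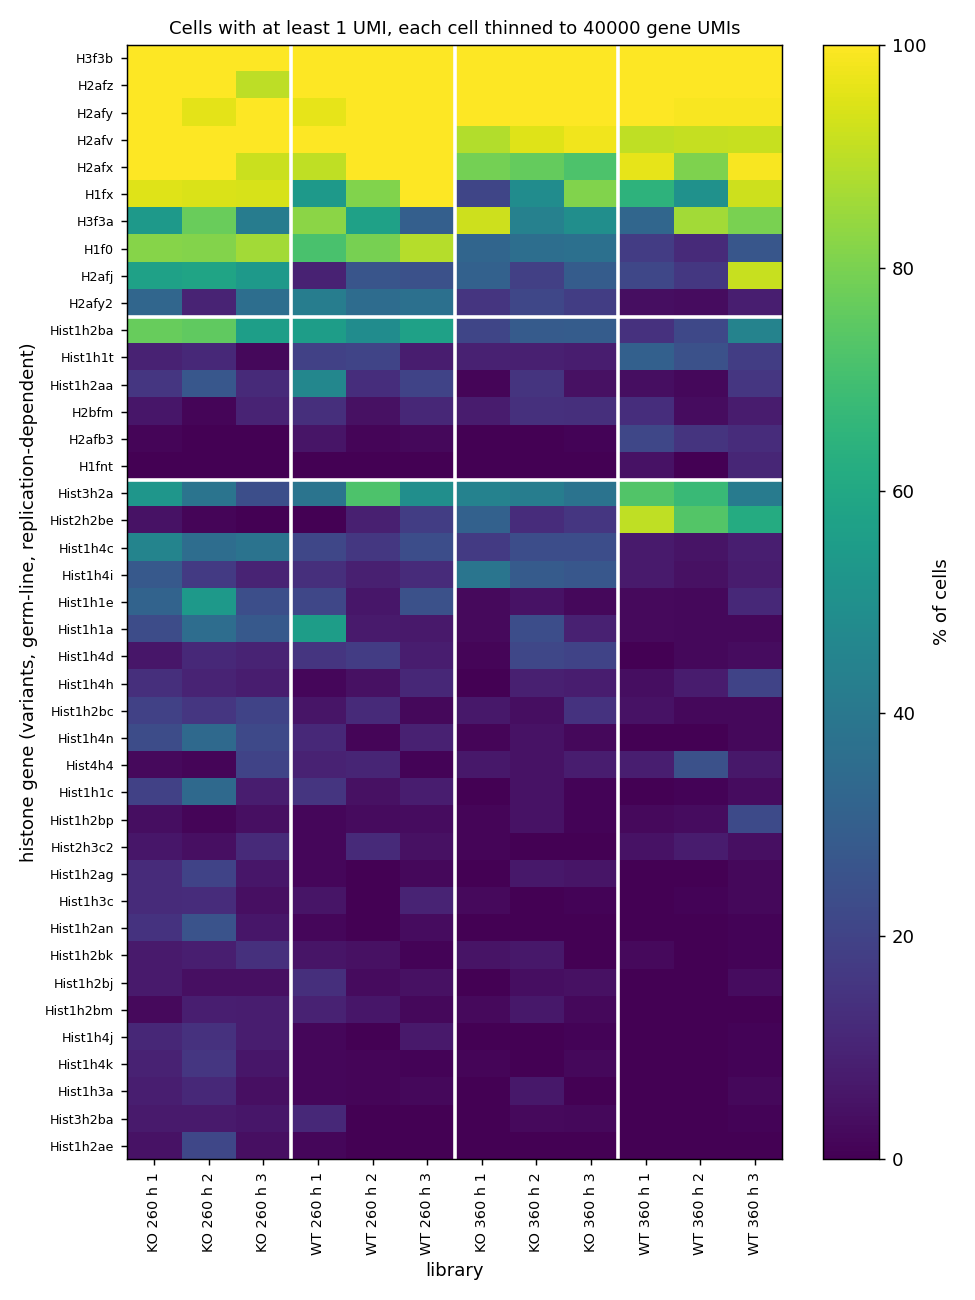
Share of cells with at least 1 UMI (colour, %) for the 41 histone genes seen in at least 5% of cells of any group, by library, after each cell was thinned to 40000 gene UMIs. White lines part the groups (columns) and the variants, germ-line and replication-dependent genes (rows). At 360 h Hist2h2be was seen in 31.2%, 12.5% and 15.7% of cells of the KO libraries and in 90.6%, 73.1% and 61.7% of cells of the WT libraries.

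With cells thinned to the same 40000 gene UMIs, 37 histone genes were seen in at least 5% of KO cells at 260 h, against 30 in WT cells at 260 h. At 360 h they were 23 in KO cells and 25 in WT cells. Unthinned, the numbers were 45 in KO and 34 in WT at 260 h, and 32 in KO and 29 in WT at 360 h. Of the replication-dependent genes 23 in KO and 16 in WT cells reached 5% at 260 h and 9 in each genotype at 360 h (thinned). Of the germ-line genes 4 reached it in KO at both times and in WT at 260 h, and 6 in WT at 360 h; all 10 variants reached it in all 4 groups.

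Several libraries stood apart. WT library 3 at 260 h had its 72 early pachytene cells in the authors' cluster 3, which also held the 141 early pachytene KO cells, while WT libraries 1 and 2 had 81 of theirs in cluster 2 and 1 in cluster 3. WT library 3 at 360 h was the deepest, and 4 of its 94 cells held 98 to 895 UMIs of the spermatid genes Acrv1, Tnp1 and Prm1, where the next cell held 21. The authors' pre-meiotic class made up 0%, 11.2% and 11.2% of the cells of the 3 KO libraries at 360 h, against 2.35%, 2.15% and 1.06% in WT; at 260 h it made up 28.05%, 28.6% and 36% in KO and 46.2%, 16.2% and 19.1% in WT. Levels are given as CPM, UMI counts scaled to the size of the library. For single genes in whole libraries that size was adjusted further, by TMM factors of 0.718 to 1.37. Marker sums and values within clusters were not adjusted in this way. Zfp541 itself was read at 75.8 to 122.6 CPM in KO against 38.1 to 128.8 in WT at 260 h, and at 130.5 to 156.2 in KO against 169.6 to 199.8 in WT at 360 h; 3′ end counts check the genotype labels only if the counted end was deleted, which the labels do not state. Summed pachytene markers (Piwil1, Insl6, Tbpl1, Ccna1, Pgk2, Ovol2, Ldhc and Hspa2) did not overlap between genotypes at 260 h. They were at 2135, 1743 and 1918 CPM in KO and 2554, 4779 and 2996 CPM in WT. The part of this difference in the genotype results at 260 h was not tested. At 360 h these markers overlapped, at 5469, 4653 and 4763 CPM in KO and 6173, 6127 and 4541 CPM in WT. The summed early prophase markers (Sycp1, Sycp3, Prdm9, Dmc1, Spo11 and Meiob) were at 2472 to 3020 CPM in the 6 libraries at 260 h. At 360 h they were at 1318, 1958 and 1681 CPM in KO and 659, 728 and 878 CPM in WT, which do not overlap; the part of this difference in the genotype results at 360 h was not tested. Markers of other testis cells were present too: summed Sertoli markers were at 257, 245 and 468 CPM in KO and 434, 210 and 181 CPM in WT at 260 h, and at 87.1, 323 and 323 CPM in KO and 104, 95.7 and 65.7 CPM in WT at 360 h. Summed Leydig markers were at 107 and 64.6 CPM in WT libraries 1 and 2 at 260 h and at 6.62 to 22.3 CPM elsewhere. The part of these cells in the results below was not tested.

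As a share of gene UMIs, histone transcripts made up 0.296%, 0.291% and 0.292% in the KO libraries at 360 h, against 0.203%, 0.221% and 0.226% in WT. The groups did not overlap, and the ratio of KO to WT means was 1.35 ± 0.074 (SD, from the spread between libraries). At 260 h the shares were 0.390%, 0.431% and 0.324% in KO and 0.363%, 0.343% and 0.359% in WT, which overlap (ratio 1.07). Per UMI of the added ERCC spike-in RNAs, the ratio was 0.842 at 260 h and 0.756 at 360 h, and 1.18 and 0.968 without WT library 3, so the direction rests on the scaling. The higher share lay in the variants, at 0.289%, 0.279% and 0.283% in KO against 0.186%, 0.209% and 0.207% in WT; replication-dependent genes took 0.0054%, 0.0088% and 0.0073% in KO against 0.0144%, 0.0098% and 0.0123% in WT at 360 h.

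For the tests, the counts of a library's cells were added up and fitted with edgeR's quasi-likelihood test over all 20279 genes that passed a filter on low counts, 48 of the 83 histone genes among them. A gene was called at an adjusted p under 0.05 (Benjamini-Hochberg). Levels of single genes are CPM of each library with TMM scaling, except within clusters. Log2 fold changes are KO minus WT unless times are compared, with ± SE. At 260 h 1.89% of all tested genes were called between genotypes, and no histone gene was. DESeq2 called 7, where it called 4.70% of all genes, and the fit without the filter 6, where it called 1.46%. An unadjusted p under 0.05 was found for 15 of 48 histone genes. The share of all genes under that limit was not taken, so no excess can be read from this count. At 360 h 22.5% of all tested genes were called and 10 histone genes, a share of the tested members (20.8%) near that background. Of these genes 6 were higher and 4 lower in KO, where 8.93% and 13.5% of all tested genes were. Leaving out a library left 4 to 8 histone genes called at 360 h, with 4 without KO library 3, 5 without KO library 2, and 6 without KO library 1 or WT library 2. In these fits 11.8% to 18.8% of all genes were called. The scaling bears on these directions: with spike-in scaling the median of all genes shifted by −0.515 on the log2 scale at 360 h, to −0.48 (by −0.28 at 260 h). In that fit 6 histone genes were called, 1 higher and 5 lower, where 18.4% of all genes were called.

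Hist2h2be, an H2B gene known in the mouse for its use in olfactory neurons, had the strongest call. At 360 h its levels were 9.45, 5.43 and 6.53 CPM in KO libraries, against 99.99, 62.5 and 39.0 CPM in WT. The highest KO library was below the lowest WT library. The log2 fold change was −3.23 ± 0.54 (adjusted p = 0.000551), and the call held in all 15 alternatives run, including the fit without WT library 3 (−3.52). In cells thinned to equal depth it was seen in 19.5% of KO and 74.6% of WT cells at 360 h, against 2.48% of KO and 10.5% of WT cells at 260 h. Levels at 360 h against 260 h were higher within each genotype: by 2.78 ± 0.59 in KO (adjusted p = 0.00341) and by 4.27 ± 0.58 in WT (adjusted p = 5.95e-05). Whether the genotype effect differed between times did not pass the test (−1.49 ± 0.79, adjusted p = 0.303).

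Of the germ-line genes, H2afb3 and Hist1h1t fell in KO at 360 h. H2afb3, an X-linked gene for a short H2A variant of the testis, was at 0.252, 0.102 and 0.453 CPM in KO, from 1 to 5 UMIs per library, against 6.78, 5.47 and 7.79 CPM in WT. Every KO library was below every WT library, with a log2 fold change of −4.55 ± 0.91 (adjusted p = 0.00202; −4.30 without the 4 spermatid-rich cells, adjusted p = 0.00289). H2afb3 was also higher in WT at 360 h than at 260 h (3.64 ± 0.88, adjusted p = 0.00428), while in KO the change over time was 0.22 ± 1.00 (adjusted p = 0.898). The test of the difference itself gave −3.42 ± 1.35 (adjusted p = 0.159). Its close copy H2afb2 had no UMI and H2afb1 12 UMIs, all in WT library 3 at 360 h, and 43.4% of the 50-base stretches at the H2afb3 end occur in another gene.

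Hist1h1t, the testis linker histone of pachytene spermatocytes, was at 2.40, 4.00 and 2.90 CPM in KO against 11.2, 10.6 and 12.8 CPM in WT at 360 h. The groups were apart, with a log2 fold change of −1.89 ± 0.63 (adjusted p = 0.0412). That call was close to the threshold: it was lost in 7 of 15 alternatives, among them each fit without a library (adjusted p up to 0.145) and the fit without pre-meiotic cells (0.0699), and the direction was the same in all 15. Thinned detection was 8.54% of KO and 24.3% of WT cells at 360 h. By cluster it was 3.65% in pre-meiotic cluster 1, 21.6% and 11.7% in early pachytene clusters 2 and 3, and 9.91% and 23.9% in late pachytene clusters 4 and 5. At 260 h the libraries overlapped (2.39, 8.76 and 1.65 CPM in KO; 10.6, 6.94 and 3.35 CPM in WT).

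Hist1h2ba and Hist1h2aa encode the testis forms of H2B and H2A, lie head to head on chromosome 13 and are annotated as coding parts only (23933773 to 23934156 on the minus strand and 23934462 to 23934851 on the plus strand). The 250 bases before the start of Hist1h2aa, which cover most of the space between both divergent genes, are shown because both genes were lower at 360 h than at 260 h in their means; capitals mark CCAAT and TATAAA on either strand (RefSeq, GRCm38.p6, chr13:23934187-23934436, plus strand).
Hist1h2aa promoter: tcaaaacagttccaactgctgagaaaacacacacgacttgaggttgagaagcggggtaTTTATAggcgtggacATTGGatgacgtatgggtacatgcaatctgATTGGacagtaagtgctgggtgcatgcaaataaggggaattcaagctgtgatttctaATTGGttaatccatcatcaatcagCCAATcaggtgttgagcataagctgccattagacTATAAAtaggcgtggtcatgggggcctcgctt
This window held 4 CCAAT and 2 TATAAA matches. Among the 77 histone genes with a promoter in the RefSeq table (250 bases before and 50 after each start), CCAAT occurred on either strand in 83.1%, against 37.4% of all 32851 promoters, and TATAAA in 46.8% against 13.6%.

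Hist1h2ba stood at 69.3, 79.5 and 31.7 CPM in KO and 80.6, 29.3 and 46.1 CPM in WT at 260 h, and at 9.45, 14.1 and 10.9 CPM in KO and 5.13, 11.9 and 31.2 CPM in WT at 360 h. It fell between the times in each genotype. The log2 change was −2.39 ± 0.57 in KO (adjusted p = 0.00816, called in all 14 alternatives) and −1.68 ± 0.56 in WT (adjusted p = 0.0263, lost in 6 of 15, among them the spike-in scaling at 0.331 and WT library 3 as the only WT library at 260 h at 0.228). Genotypes overlapped at each time (0.22 ± 0.54 at 260 h and −0.49 ± 0.55 at 360 h; without WT library 3 the value at 360 h was 0.42). Hist1h2aa was at 10.5, 18.5 and 4.74 CPM in KO and 18.7, 4.27 and 6.48 CPM in WT at 260 h, and at 0.756, 4.92 and 2.18 CPM in KO and 1.10, 1.13 and 5.80 CPM in WT at 360 h. Its change with time missed the threshold in KO (−2.09 ± 0.84, adjusted p = 0.082) and in WT (−1.82 ± 0.82, adjusted p = 0.0895). By the authors' clusters, Hist1h2ba was seen in 29.2% of pre-meiotic cells, 65.9% and 77.6% of early pachytene cells of clusters 2 and 3, and 26.6% and 27.2% of late pachytene cells of clusters 4 and 5 (thinned).

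H1fnt and H1foo, linker histone genes of spermatids and of oocytes, did not pass the filter. H1fnt had 4 UMIs in all KO libraries at 360 h and 8, 0 and 341 UMIs in WT libraries 1 to 3, and at 260 h 1 UMI in KO and none in WT. H1foo had 64 UMIs over 38 cells, with 0 to 14 per library in every group. H2bfm, a germ-line H2B gene, was called in no comparison. H2afx, the gene of variant X, was at 47.9, 46.6 and 37.8 CPM in KO against 83.8, 75.5 and 197.8 CPM in WT at 360 h. These groups did not overlap but the difference missed the threshold (−1.43 ± 0.58, adjusted p = 0.0983; DESeq2 0.0261; without WT library 3 −0.86, adjusted p = 0.405). Over time H2afx fell in KO, to 44.1 ± 5.5 CPM at 360 h against 445 ± 134 CPM at 260 h (SD, n = 3 each; −3.34 ± 0.63, adjusted p = 0.00238), and the change in WT was −1.40 ± 0.58 (adjusted p = 0.0716), with 73.8, 261 and 607 CPM in the WT libraries at 260 h.

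**Figure D2:**
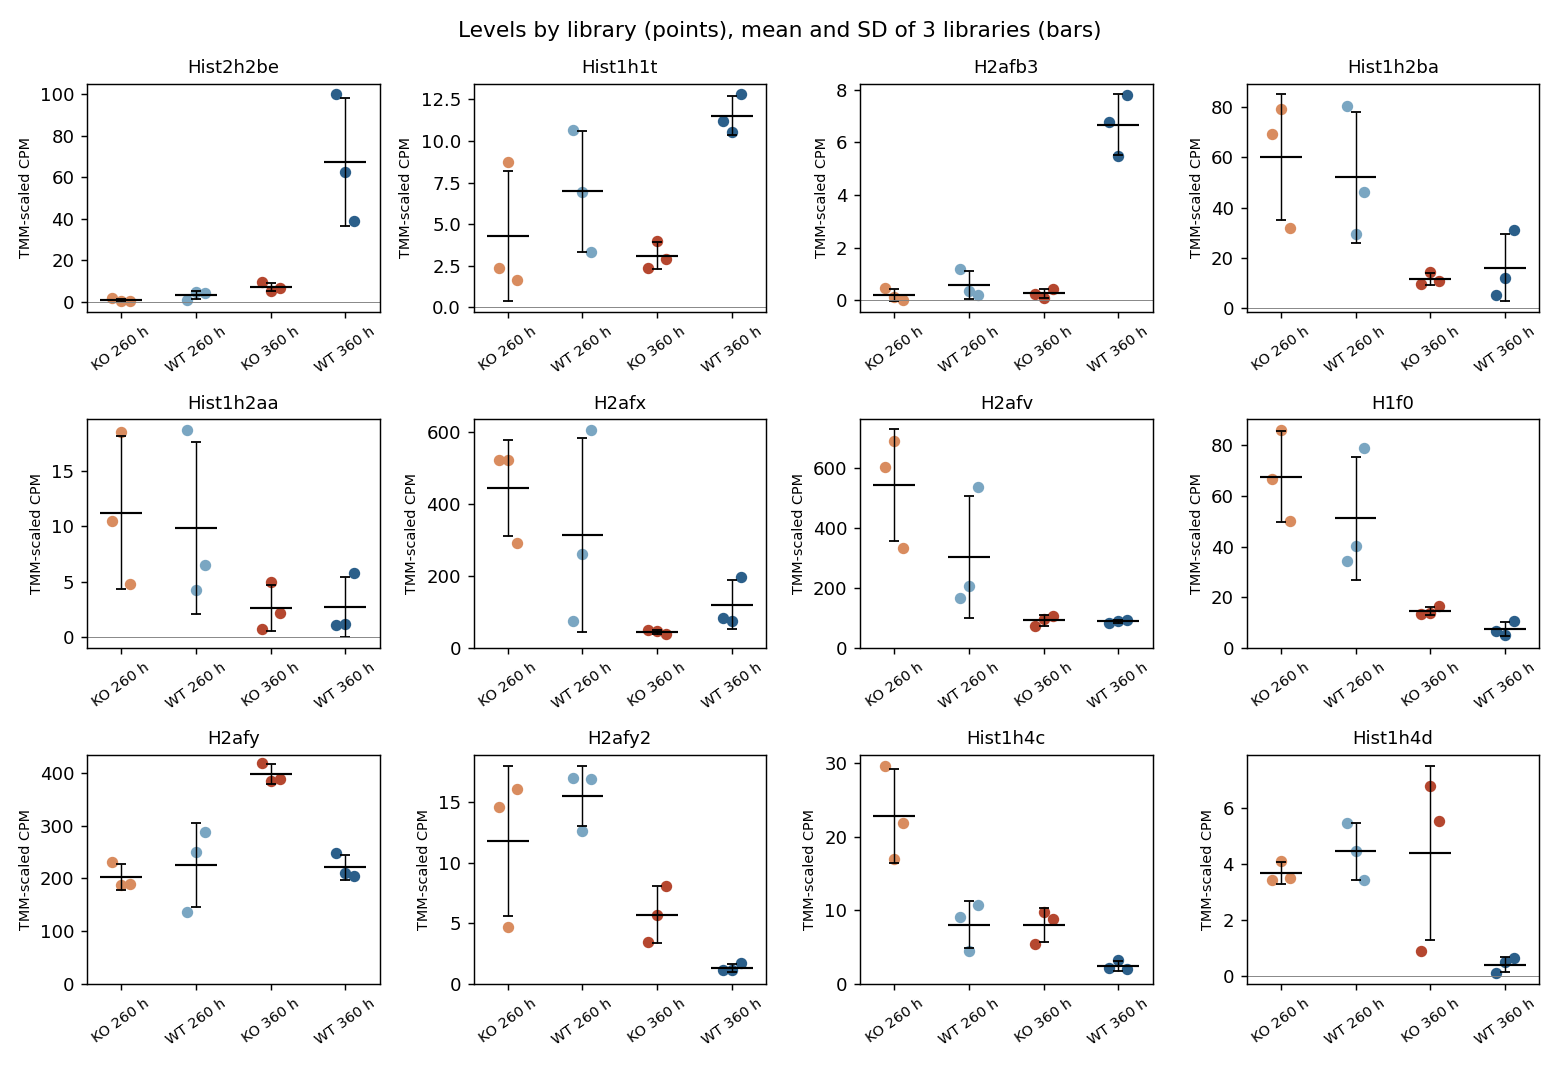
TMM-scaled CPM of 12 named histone genes by group, KO left of WT at each time; points are libraries, bars the mean and SD of 3 libraries. At 360 h every KO library lies below every WT library for Hist2h2be, Hist1h1t and H2afb3 and above every WT library for H2afy, H2afy2, Hist1h4c and Hist1h4d.

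The macroH2A genes rose in KO at 360 h. H2afy stood at 420, 386 and 389 CPM in KO against 248, 210 and 205 CPM in WT, a log2 fold change of 0.85 ± 0.27 (adjusted p = 0.0312). Every KO library was above every WT library, but the call was lost in 8 of 15 alternatives, including spike-in scaling (0.33, adjusted p = 0.671) and each fit without a library at 360 h. H2afy2 was at 3.40, 5.64 and 8.07 CPM in KO against 1.10, 1.13 and 1.68 CPM in WT (2.11 ± 0.55, adjusted p = 0.0114). That call was lost with spike-in scaling (1.53, adjusted p = 0.149), without WT library 2 (0.0581) and without KO library 3 (0.0645). Its exons overlap those of Aifm2 on the other strand, and H2afy exons those of Gm47071; the labels do not state whether reads were counted by strand. With time H2afy2 fell in WT (−3.54 ± 0.57, adjusted p = 0.000229), and the KO change was −1.04 ± 0.52 (adjusted p = 0.161); the difference of the effects was 2.51 ± 0.74 (adjusted p = 0.0652). H2afy rose with time in KO (0.97 ± 0.27, adjusted p = 0.0164, but 0.118 with spike-in scaling and 0.0599 without KO library 1 at 360 h), and the change in WT was −0.03 ± 0.27 (adjusted p = 0.94).

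The other abundant variants differed mainly with time. H3f3b, which with H3f3a encodes the H3 replacement variant, held 169930 UMIs, seen in all 929 cells, and was called in no comparison (1711 ± 99.2 CPM in KO and 1250 ± 183 CPM in WT at 360 h, SD, n = 3 each; 0.45 ± 0.26, adjusted p = 0.232). H3f3a ran from 13.8 to 55.7 CPM in KO and 11.4 to 74.7 CPM in WT at 260 h, and from 16.3 to 61.4 CPM in KO and 15.8 to 73.97 CPM in WT at 360 h, without a call. H2afz and H2afv, the genes of variant Z, moved in opposite directions over time. H2afz rose by 1.09 ± 0.37 in KO (adjusted p = 0.0422) and by 1.37 ± 0.37 in WT (adjusted p = 0.00864), and these calls were lost in 5 of 14 and 2 of 15 alternatives, among them the fits without pre-meiotic cells (adjusted p = 0.174 in KO and 0.0567 in WT). H2afv fell, with log2 changes of −2.57 ± 0.40 in KO (adjusted p = 0.000412) and −1.79 ± 0.39 in WT (adjusted p = 0.00232), a call that held in every alternative run for each genotype. Between genotypes at 260 h H2afv was not called (0.84 ± 0.38, adjusted p = 0.369), but it was without WT library 3 (1.49, adjusted p = 0.0385).

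H1f0, a linker histone variant of non-dividing cells, was at 66.8, 86.2 and 50.03 CPM in KO and 34.3, 40.4 and 79.1 CPM in WT at 260 h, and at 13.2, 13.7 and 16.3 CPM in KO and 6.78, 5.19 and 10.4 CPM in WT at 360 h. It fell with time in both genotypes in all alternatives run (−2.23 ± 0.38 in KO, adjusted p = 0.000767; −2.78 ± 0.39 in WT, adjusted p = 7.79e-05). The genotypes at 360 h did not overlap, without a call (0.94 ± 0.37, adjusted p = 0.0814; 0.0264 in late pachytene cells alone). H1fx, another linker variant, was called in no comparison. At 260 h its WT libraries ran from 17.97 to 278 CPM, with the highest in library 3, and its KO libraries from 132 to 148 CPM. Over time in KO it was at 27.2 ± 20.4 CPM at 360 h against 138 ± 9.01 CPM at 260 h (SD, n = 3 each), without overlap (−2.34 ± 0.92, adjusted p = 0.0915). DESeq2 called this change (0.0103), and so did the fits with the replicate block (0.00437) and with the KO libraries alone (0.00354). H2afj, an H2A variant, was high in the KO libraries at 260 h (40.5, 36.8 and 22.7 CPM, against 2.36, 8.00 and 12.7 CPM in WT) and in WT library 3 alone at 360 h (8.95, 6.97 and 11.2 CPM in KO, against 8.98, 9.05 and 91.3 CPM in WT). It was not called between genotypes at either time (2.08 ± 0.81, adjusted p = 0.278 at 260 h; −2.01 ± 0.80, adjusted p = 0.0918 at 360 h), and the adjusted p at 360 h was 0.998 without WT library 3. It had the smallest adjusted p of the histone genes for a difference of the genotype effect between times (−4.09 ± 1.14, adjusted p = 0.0582). That difference was called with DESeq2 (0.00166), without the filter (7.51e-06), in thinned cells (0.0442), with the replicate block (0.0489) and without WT library 1 or 2 at 360 h (0.0299 each), and was −2.08 without WT library 3 at 360 h (0.133). H2afj is described here after its values were seen.

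**Figure D3:**
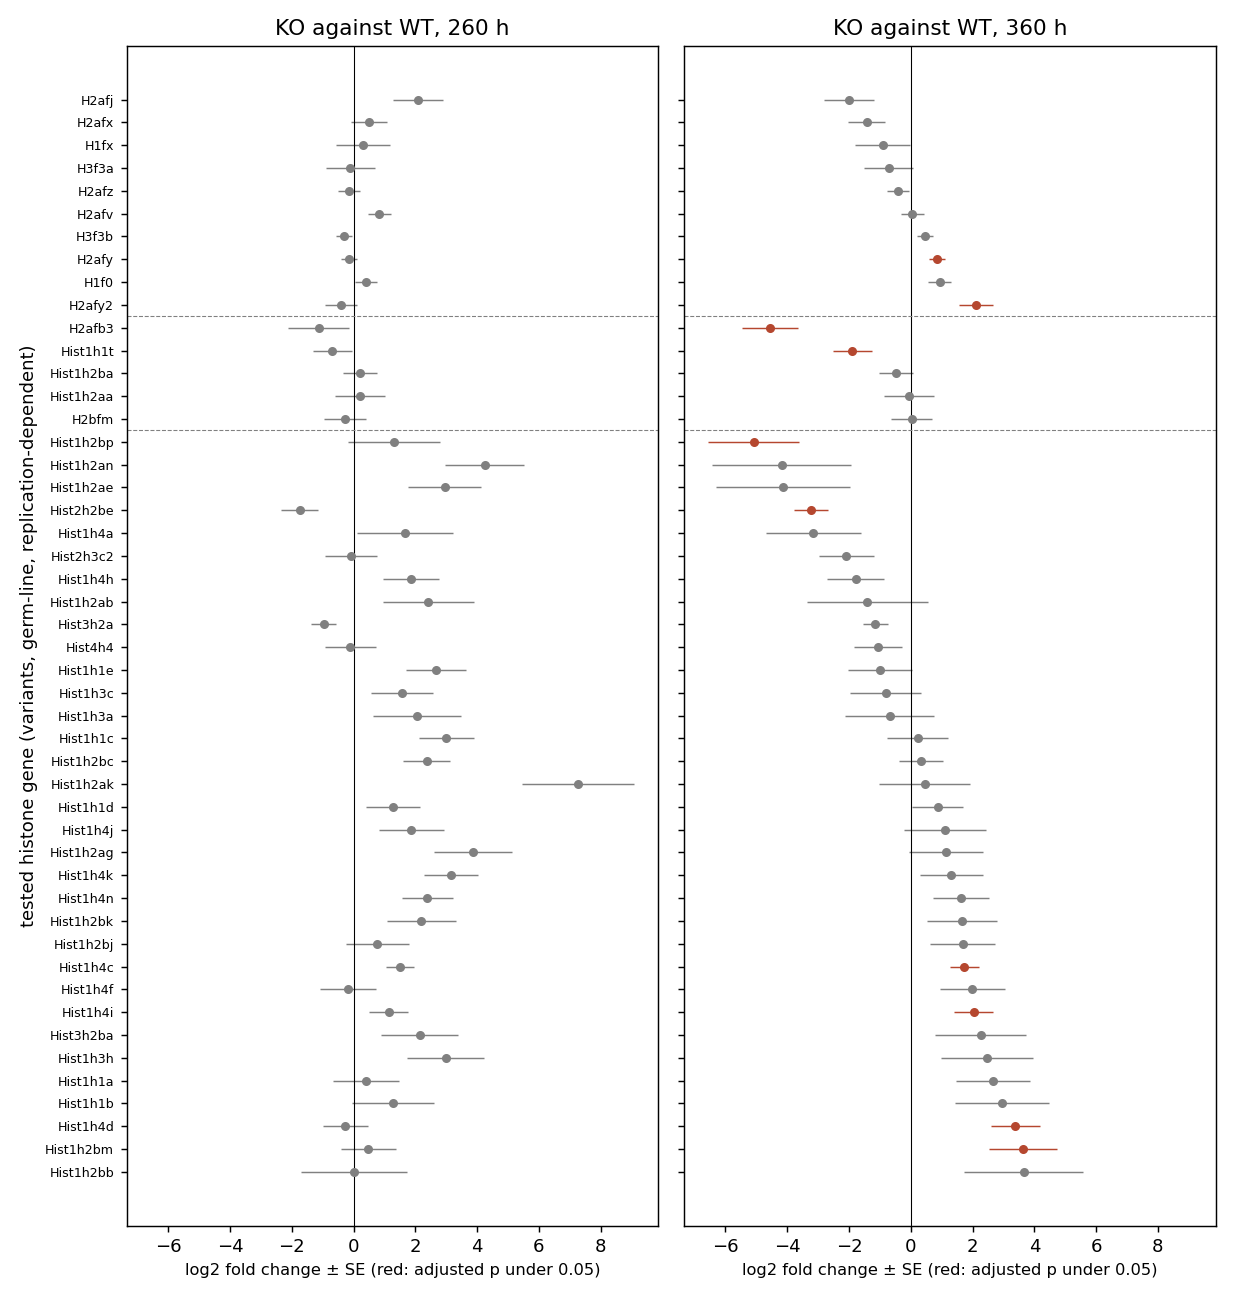
Log2 fold change (KO minus WT, ± SE) of the 48 tested histone genes at 260 h (left) and 360 h (right), with called genes in red; dashed lines part the variants, germ-line and replication-dependent genes. No gene was called at 260 h and 10 were at 360 h.

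Replication-dependent genes called at 360 h were 3 H4 genes and 3 H2B genes. Hist1h4d was at 0.882, 6.76 and 5.53 CPM in KO, from 7, 66 and 61 UMIs, against 0.092, 0.472 and 0.619 CPM in WT. The lowest KO value, in the library with no pre-meiotic cell, lay just above the highest WT value. Its log2 fold change was 3.39 ± 0.80 (adjusted p = 0.00622), and 2.83 without pre-meiotic cells (adjusted p = 0.0150); the call held in all 13 alternatives in which it was tested. Hist1h4c was at 5.42, 9.74 and 8.80 CPM in KO and 2.11, 3.21 and 1.95 CPM in WT (1.73 ± 0.47, adjusted p = 0.0158), a call lost in 5 of 15 alternatives, among them the fits without WT library 1 or 3 and without KO library 2 or 3 (adjusted p of 0.0595 to 0.0832). Hist1h4i was at 10.2, 6.56 and 8.34 CPM in KO and 0.825, 1.04 and 4.11 CPM in WT (2.03 ± 0.63, adjusted p = 0.0299). Its call was lost in 6 of 15 alternatives, among them the fits without WT library 1 or 2 or any KO library (adjusted p of 0.0676 to 0.132), and the value was 3.14 without WT library 3. The KO libraries of these 3 H4 genes stood above all WT libraries. With spike-in scaling Hist1h4c and Hist1h4i lost the call (adjusted p = 0.164 and 0.307), and Hist1h4d kept it (0.0305).

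The H2B genes went both ways. Hist1h2bm was at 0.756, 2.05 and 0.997 CPM in KO, from 37 UMIs in all, and at 0.183, 0 and 0.088 CPM in WT, from 4 UMIs (3.64 ± 1.09, adjusted p = 0.0252; lost in 4 of 12 alternatives). It was seen most in pre-meiotic cluster 1, in 16.8% of cells (thinned), against 1.35% in cluster 4, and without pre-meiotic cells it did not pass the filter. Hist1h2bp was at 0.126, 1.13 and 0.091 CPM in KO and 0.458, 1.89 and 44.6 CPM in WT. The groups overlap and the fold change of −5.09 ± 1.47 (adjusted p = 0.0242) rests on WT library 3: without this library it was −1.36 (adjusted p = 0.535), and without its 4 spermatid-rich cells −2.84 (adjusted p = 0.0751).

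Those 4 cells, which the authors' table classes as late pachytene, carried 855 Hist1h2bp UMIs, 84.8% of the library's, at 105 to 282 per cell. They also held 87.7% of its H1fnt UMIs, 86.5% of its Hist1h4a UMIs and 46.0% of its H2afb3 UMIs. By contrast they held 2.86% of its H2afj UMIs, 2.66% of its H2afx UMIs and 1.47% of its Hist2h2be UMIs. Among the other 90 cells of the library 64 had a Hist1h2bp UMI, at most 13 in a cell, and 78 had a Prm1 UMI, at most 7; the part of free RNA in these low counts was not tested. The summed spermatid markers (Acrv1, Tnp1, Prm1, Spaca1 and Tssk1) were at 3.4 to 7.0 CPM in KO libraries and 13.1, 13.1 and 166 CPM in WT libraries at 360 h. At 260 h the same sum was at 34.4, 49.3 and 33.0 CPM in KO and 11.8, 19.7 and 34.9 CPM in WT. This sum alone therefore does not measure the presence of spermatids.

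**Figure D4:**
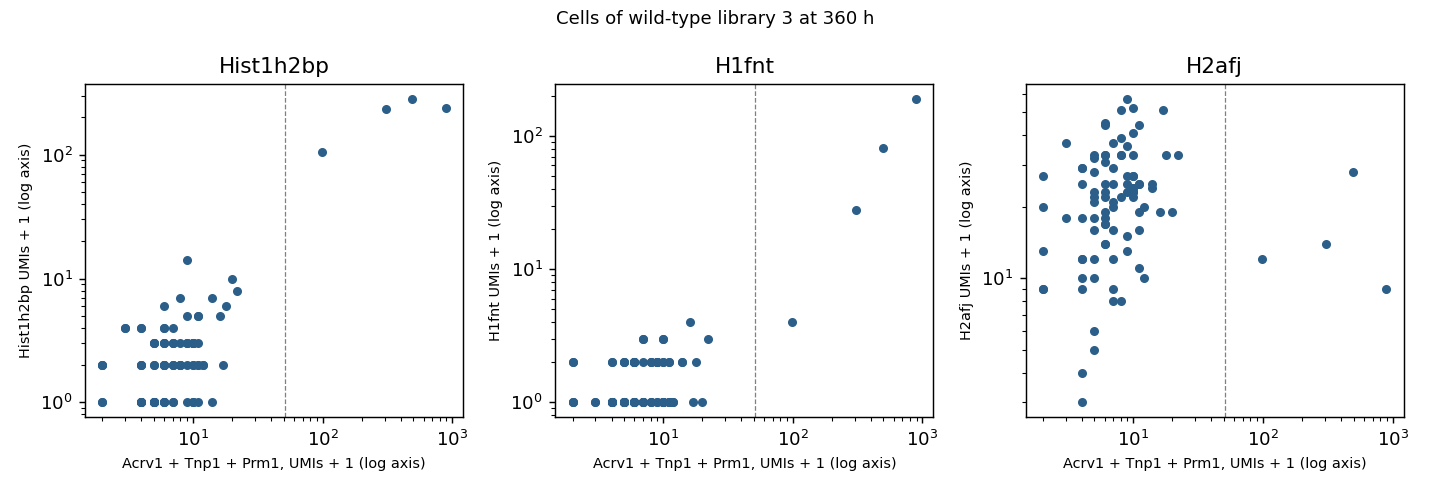
UMIs of Hist1h2bp, H1fnt and H2afj in each of the 94 cells of WT library 3 at 360 h (vertical, UMIs + 1, log axis) against the UMIs of Acrv1, Tnp1 and Prm1 (horizontal, UMIs + 1, log axis); the dashed line is the limit of 50 UMIs. The 4 cells right of it hold 105 to 282 Hist1h2bp UMIs each, and for H2afj they lie within the range of the other cells.

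At 260 h the libraries of 17 replication-dependent genes did not overlap between genotypes, and those of 14.6% of all tested genes did not. In 16 of the 17 KO was higher and in Hist3h2a lower. Since a low gene passes the filter through the group where it is high, this number is a description. None was called. The smallest adjusted p was that of Hist1h2ak, an H2A gene with 43 UMIs in KO and 0 in WT, or at least 15.1-fold higher in KO against 3 counts over the WT group (adjusted p = 0.0638). Linker histone gene Hist1h1c was at 17.2, 39.0 and 5.97 CPM in KO and 3.31, 0.534 and 3.79 CPM in WT (3.003 ± 0.89, adjusted p = 0.118), and in early pachytene cells alone it was called. Hist1h4c was at 29.7, 17.0 and 21.8 CPM in KO and 8.99, 4.45 and 10.6 CPM in WT (1.50 ± 0.46, adjusted p = 0.137). Against WT library 3 alone, whose cells shared cluster 3 with the KO cells, no histone gene was called, in a fit that takes the lone library to vary like the others. Hist3h2a, the lower one, was at 18.0, 17.4 and 9.88 CPM in KO and 22.0, 36.6 and 30.3 CPM in WT at 260 h (−0.97 ± 0.40, adjusted p = 0.302), and at 20.4, 17.6 and 17.3 CPM in KO and 57.5, 46.7 and 18.6 CPM in WT at 360 h (−1.15 ± 0.40, adjusted p = 0.0502). Without WT library 3 the value at 360 h was −1.51 (adjusted p = 0.00804), past the threshold, as it also was with DESeq2, with spike-in scaling and without the 4 spermatid-rich cells. The same-strand overlap of Hist3h2a with Trim17 applies to these values too.

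Between 260 h and 360 h, 18 histone genes were called in KO, 3 higher and 15 lower at 360 h, where 23.5% of all tested genes were called, 13.3% higher and 10.2% lower. In WT 18 were called, 5 higher and 13 lower, where 39.9% of all tested genes were, 20.9% higher and 18.9% lower. Without KO library 1 at 360 h 11 were called in KO (12.4% of all genes), and without WT library 3 at 260 h 10 were called in WT (29.9% of all genes). Replication-dependent genes made up 11 of the 15 that fell in KO and 9 of the 13 that fell in WT. These shares were near their part of the tested set, 33 of 48 histone genes. Hist1h2an and Hist1h2ae, H2A genes, had 287 and 230 UMIs in KO at 260 h and 0 at 360 h, or at least 112-fold and 95.7-fold lower against 3 counts over the group. Hist1h1e, a linker histone gene, fell in KO (log2 change −5.58 ± 1.14, adjusted p = 0.00386), though every 50-base stretch of its end occurs in another gene and its exons overlap those of Hist1h2be on the same strand. In WT, Hist1h1a and Hist1h2bm fell, with log2 changes of −4.39 ± 1.26 and −4.64 ± 1.11 (adjusted p = 0.0149 and 0.00402). The pre-meiotic share differed between the times as well, at most 11.2% of the cells of a library at 360 h against 16.2% or more at 260 h. Without pre-meiotic cells 37 histone genes were tested and 17 were called in each genotype, where 22.3% of all genes were called in KO and 35.7% in WT. In each genotype 15 of the 17 were shared with the full set of cells. For the difference of the genotype effect between times, 5.08% of all tested genes and no histone gene were called. An unadjusted p under 0.05 was found for 14 histone genes, a count without the share of all genes beside it. DESeq2 called 7 of 48 histone genes, where it called 10.9% of all genes. The unfiltered fit called 9 of 75, where it called 3.37% of all genes.

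**Figure D5:**
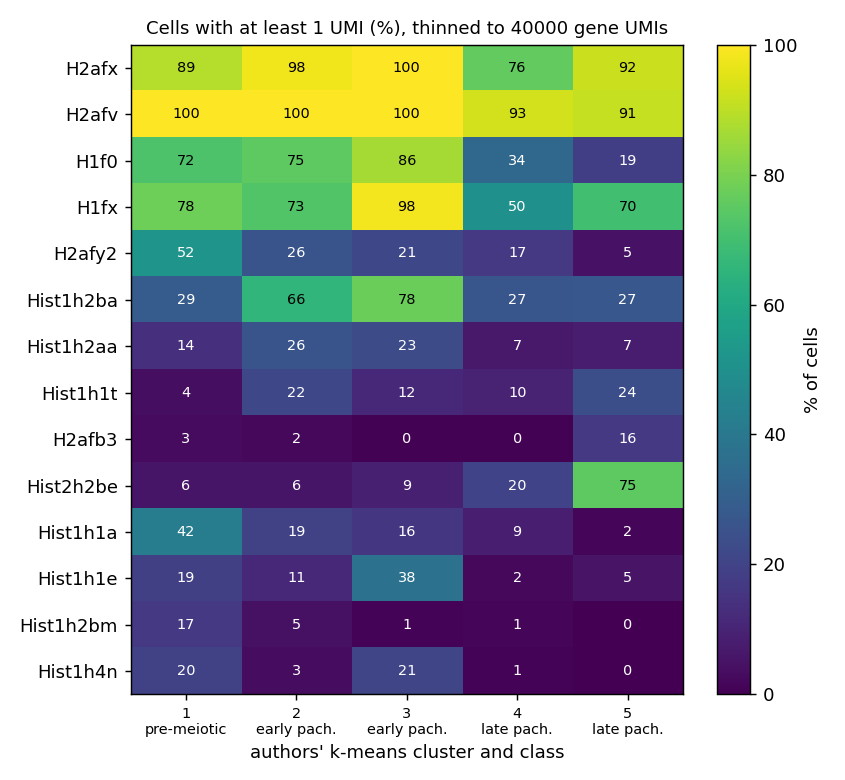
Share of cells (%) with at least 1 UMI, thinned to 40000 gene UMIs per cell, for 14 histone genes in the authors' 5 k-means clusters. H2afb3 and Hist2h2be are highest in cluster 5 and Hist1h1a, Hist1h2bm and H2afy2 in cluster 1.

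Across the authors' clusters, which were made from these cells' expression and are described without a test, replication-dependent genes took 0.0294% of gene UMIs in pre-meiotic cluster 1 (137 cells), 0.0104% and 0.0193% in early pachytene clusters 2 and 3, and 0.0060% and 0.0120% in late pachytene clusters 4 and 5. Cluster 4 held 220 of its 222 cells from KO at 360 h and cluster 5 267 of its 268 cells from WT at 360 h. The number of histone genes seen in at least 5% of cells (thinned) was 41, 27, 33, 23 and 24 in clusters 1 to 5. Within cluster 3 (CPM without TMM scaling), H2afx was at 720, 683 and 563 CPM in the KO libraries and 703 CPM in WT library 3. Hist1h1e was at 28.8, 84.7 and 29.6 CPM in KO and 17.8 CPM in WT. H2afx in the pre-meiotic cells of the same libraries stood at 195, 142 and 78.5 CPM in KO and 310 CPM in WT, each below its early pachytene value.

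Genes that act on histones were described from lists with known roles, all at 360 h between genotypes, since none was called at 260 h in any list. Of 14 tested genes for histone mRNA 3′ end formation and transcription, 1 rose and 2 fell in KO, where 8.93% of all tested genes rose and 13.5% fell, with a median log2 fold change of 0.10 against 0.03 over all tested genes. Lsm11, a subunit of the U7 particle that cuts histone messages, was at 14.4 ± 1.95 CPM in KO and 3.38 ± 1.79 CPM in WT (2.08 ± 0.49, adjusted p = 0.00644). Ncbp1, which binds the message cap, and Cpsf2, a cleavage factor, fell, with log2 fold changes of −0.78 ± 0.24 and −0.80 ± 0.26 (adjusted p = 0.0310 and 0.0346). Slbp itself was not called (135 CPM in KO and 119 CPM in WT; adjusted p = 0.691).

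Of 34 tested chaperone and exchange genes, 5 rose and 4 fell (median 0.14), a total near the 22.5% of all tested genes called. Anp32e, the chaperone that takes variant Z out of chromatin, was at 128 ± 10.4 CPM in KO and 5.84 ± 3.43 CPM in WT (4.47 ± 0.38, adjusted p = 2.17e-06), and Mms22l, which works with TONSL at replication forks, at 56.2 ± 9.62 CPM in KO and 12.1 ± 4.37 CPM in WT (2.20 ± 0.33, adjusted p = 0.000235). Cabin1, of the HIRA complex that deposits the H3 replacement variant, rose (1.66 ± 0.25, adjusted p = 0.000251), and Ipo4, an importin for new histones, fell (−1.05 ± 0.25, adjusted p = 0.00659). Of the 12 genes for histone replacement in spermatids, 9 were tested and 3 fell, where 13.5% of all tested genes fell. Psme4, the proteasome activator that degrades acetylated histones, was at 125 ± 7.91 CPM in KO and 329 ± 25.1 CPM in WT (−1.39 ± 0.22, adjusted p = 0.0004). Tnp2, a transition protein, was at 0.285 ± 0.213 CPM in KO and 11.5 ± 12.98 CPM in WT (−5.29 ± 1.03, adjusted p = 0.00242). Epc1 was the other gene that fell. The 4 spermatid-rich cells held 58.3% of the Tnp2 UMIs of WT library 3, and the Tnp2 value without that library was not taken. Of 5 tested genes of the centromeric histone and its deposition, only Mis18a was called and rose (0.90 ± 0.29, adjusted p = 0.0350), where 8.93% of all tested genes rose. Of 21 tested DNA replication genes 8 rose, where 8.93% of all tested genes did, and none fell, among them Mcm5 (68.8 ± 20.6 CPM in KO and 19.0 ± 7.63 CPM in WT; 1.86 ± 0.33, adjusted p = 0.000958), Mcm3, Prim1 and Mcm6. Early prophase markers at 360 h were higher in KO too, at 1318, 1958 and 1681 CPM against 659, 728 and 878 CPM in WT. The summed pre-meiotic markers at 360 h were at 362.5, 691 and 681 CPM in KO and 567, 632 and 502.5 CPM in WT. Both marker sums are without TMM scaling, unlike the levels of single genes. The part of cell composition in these lists was not tested.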

How the data were processed

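The values are raw UMI counts per gene and cell barcode that the authors deposited for 12 libraries; STAR 2.5.3a, featureCounts 1.6.4, UMI-tools 1.0.0 and build mm10 stand in the submitters' processing notes, without settings or strand. Of 1152 barcodes (96 shared by all libraries), the 929 cells in the authors' deposited table were used, with its clusters and classes; no doublet caller was run. Counts were summed per library and tested with edgeR 4.0.16 (R 4.3.3, filterByExpr, TMM, quasi-likelihood, 1 coefficient per group, 12 libraries, Benjamini-Hochberg over 20279 genes, two-sided). The fit was run on simulated data with 200 changed genes at 360 h. Of 4-fold increases 38% were called, of 4-fold decreases 30% and of 2-fold changes 0%, and 8.11% of the calls were false. In the real data 22.5% of all tested genes were called at 360 h, which makes the adjusted threshold less strict. The simulated shares therefore do not measure the power at 360 h. The 92 ERCC spike-ins stayed out of library sizes. Named were histone genes called between genotypes, the 10 highest by mean CPM, and Hist1h1t, Hist1h2aa, Hist1h2ba, H1fnt, H1foo and H2afx; other genes are examples chosen after their values were seen, and other lists give up to 4 called members with the smallest p. Members and lists were chosen with earlier results of these data known. Stem-loops were searched in GENCODE M21 transcripts, promoter motifs in RefSeq windows.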

Additional observations from a re-analysis of the deposited data

How the results depend on the processing

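No called histone gene of the naming rule changed direction in the alternatives run. Genes given as further examples, such as Hist1h1e, Hist1h2an, Hist1h2ae and Hist1h1a, were not part of that check. In what follows, the share of all genes called by the same fit stands in brackets. Called histone genes between genotypes at 260 h numbered 0 (1.89%), but 7 with DESeq2 (4.70%) and 6 of 75 without the low-count filter (1.46%). They numbered 3 without pre-meiotic cells (3.17%), 2 in early pachytene cells only (3.17%) and 0 to 1 with a library left out (0.518% to 2.59%). At 360 h they numbered 10, 6 higher and 4 lower (22.5%), but 6 with spike-in scaling (18.4%). DESeq2 called 13 of 48, 6 higher and 7 lower (28.6%). Without the filter 13 of 75 were called, 5 higher and 8 lower (10.2%). With a library left out 4 to 8 were called (11.8% to 18.8%). Over time the called histone genes numbered 18 in each genotype (23.5% in KO, 39.9% in WT). When a library was left out they numbered 11 to 17 in KO (12.4% to 17.4%) and 10 to 21 in WT (28.2% to 32.6%). For the difference of the genotype effects they numbered 0 (5.08%), but 7 of 48 with DESeq2 (10.9%) and 9 of 75 without the filter (3.37%). They numbered 1 in thinned cells (7.8%) and 0 to 2 with a library left out (2.18% to 5.09%). The cause of these shifts was not tested. A UMI minimum of 2 left 22 genes in at least 5% of WT cells at 260 h and 21 in KO cells at 360 h. Without pre-meiotic cells the histone share was 0.299% in KO at 360 h and 0.382% in WT at 260 h. Per spike-in UMI the KO to WT ratio was 0.842 at 260 h and 0.756 at 360 h, below 1 where the ratio of shares was above it, and at 260 h it was 1.18 without WT library 3. With the replicate number as a block, 9 histone genes were called at 360 h (19.9% of all genes) and 0 at 260 h (1.67%). Over time 20 were called in KO (21.7%) and 14 in WT (36.1%), and 1 for the difference (3.82%). Same-numbered libraries did not pair (correlations of −0.199 to 0.223). For the single genes of the naming rule, 1444 values kept their side of the threshold, 71 lost the call and 42 gained one. Many of the 1444 belong to comparisons without a call, which could not lose one. These counts are therefore no measure of how stable the calls were. Of the replication-dependent genes, 37 of the 64 were seen in under 5% of cells at this depth.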
